A study of Mus musculus with 61 samples.

Results

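The transcription factors described here are 10 homeobox and paired-box genes that pattern the midbrain and hindbrain of the embryo: En1, En2, Lmx1b, Pax5, Pax6, Pax7, Irx1, Irx2, Irx3 and Irx5. They were chosen by name, each through the probe of its RefSeq accession with the highest mean signal, out of 16358 genes that could be named this way on the array, and all 10 had a probe. RNA was measured in 61 fractions of whole brain from 6 male C57BL/6J mice aged 8 weeks, with no other treatment or genotype among them. Each brain was perfused with RNAlater, frozen and cut in 1 plane, and 200 slices of 5 µm were pooled into each fraction of 1 mm width, with 1 one-colour array per fraction. Mouse C gave 13 and mouse Co 16 coronal fractions, numbered from caudal to rostral. Mouse S gave 9 and mouse So 10 sagittal fractions from left to right, and mouse H gave 6 and mouse Ho 7 horizontal fractions from dorsal to ventral. The letter o marks a plane cut slightly oblique. The authors matched 56 of the fractions into 28 pairs of 1 fraction from each mouse of a plane (13 coronal, 9 sagittal and 6 horizontal), by the likeness of these same arrays. The pairs, written c1 to c13, s1 to s9 and h1 to h6, are treated as replicates below, although all pairs of a plane come from the same 2 mice. In the fit over all 28 pairs, a p-value rests on the spread between the 2 mice of a pair, pooled over the planes. The positions of a pair were matched by their expression, and the fit counts pairs of the same 2 mice as independent. The p-values may therefore be too small.

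In the embryo, a signalling centre at the border of midbrain and hindbrain induces the engrailed genes and Pax5, which keep the surrounding tissue midbrain or cerebellum. Pax6 marks forebrain and the precursors of cerebellar granule cells, Pax7 marks the roof of the midbrain, Lmx1b acts in the floor and in the neurons that make serotonin and dopamine, and the Iroquois genes Irx1 to Irx5 divide the neural tube into territories. Many of these factors stay on in the adult neurons that descend from those domains. A fraction is a slab of mixed tissue, so that fewer cells of a type and less RNA per cell cannot be told apart.

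The RefSeq promoter table (build GRCm38.p6, 250 bases before to 50 after a transcript start) held 8 sequences for 7 of the 10 genes. Those of Pax7, Irx2 and Pax6 are shown because these genes differed in pattern: a band at the midbrain for Pax7, a run through the hindbrain for Irx2, and separate bands at both ends of the brain for Pax6. The windows were searched on both strands for TAATTA, a core that many homeodomains bind, and for ACANNTGT, a core described for Iroquois proteins, and capitals mark a match.
Pax7 (chr4:139832919-139833218, minus strand): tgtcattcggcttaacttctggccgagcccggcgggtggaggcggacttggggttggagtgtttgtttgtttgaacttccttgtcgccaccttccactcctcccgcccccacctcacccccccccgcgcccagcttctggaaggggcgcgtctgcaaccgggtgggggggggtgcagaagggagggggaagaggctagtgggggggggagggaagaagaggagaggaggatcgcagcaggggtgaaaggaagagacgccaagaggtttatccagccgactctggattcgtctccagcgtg
Irx2 (chr13:72628570-72628869, plus strand): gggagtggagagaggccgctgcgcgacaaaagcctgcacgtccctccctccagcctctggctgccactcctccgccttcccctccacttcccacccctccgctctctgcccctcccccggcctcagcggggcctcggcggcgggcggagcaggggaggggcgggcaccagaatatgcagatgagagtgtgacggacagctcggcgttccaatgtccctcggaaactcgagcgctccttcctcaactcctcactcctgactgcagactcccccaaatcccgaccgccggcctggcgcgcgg
Pax6, upstream start (chr2:105668646-105668945, plus strand): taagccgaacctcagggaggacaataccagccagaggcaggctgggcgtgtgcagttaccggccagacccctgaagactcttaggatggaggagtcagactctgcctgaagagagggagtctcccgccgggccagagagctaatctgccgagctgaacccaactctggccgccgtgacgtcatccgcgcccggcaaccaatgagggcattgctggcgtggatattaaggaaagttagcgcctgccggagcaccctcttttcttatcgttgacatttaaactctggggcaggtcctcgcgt
Pax6, downstream start (chr2:105682213-105682512, plus strand): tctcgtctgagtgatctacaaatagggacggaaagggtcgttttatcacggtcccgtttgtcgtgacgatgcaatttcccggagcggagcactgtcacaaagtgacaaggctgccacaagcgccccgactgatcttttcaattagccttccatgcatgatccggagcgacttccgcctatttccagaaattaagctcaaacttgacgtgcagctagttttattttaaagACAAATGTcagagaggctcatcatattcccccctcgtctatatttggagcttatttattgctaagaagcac
The downstream Pax6 window held 1 match to ACANNTGT, and none of the 8 windows held TAATTA. Of all 32851 promoters of this length in the table, 7.38% held ACANNTGT and 5.29% held TAATTA. The 4 windows shown were 63.7% G or C for Pax7, 69.0% for Irx2, and 58.7% and 46.3% for the starts of Pax6, against a median of 52.7% over all promoters.

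Levels are given as the intensity of a probe in percent of the 75th percentile of the intensities on its array. Percentages of different probes are not comparable with each other, and each gene was followed only across fractions. A probe is called well above background where the scanner software flags at least 1 of its spots so, and the lowest such signal lay between 0.542% and 2.64% of the 75th percentile over the 61 arrays, with a median of 1.1%. Over the arrays, 57.9% to 73.1% of probes were well above background. The arrays lay on 16 slides read on 5 scan days, and mice C and Co were scanned on different days.

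En2 and Pax6 were well above background in all 61 fractions, Irx2 in 56, Irx1 in 49, Irx5 in 36 and Pax7 in 28. The other 4 were dim: Lmx1b passed in 15 fractions, En1 in 12, Irx3 in 3 and Pax5 in 2. Of the 10 genes, 8 varied over the 28 pairs at an adjusted p under 0.05 (limma's F test, Benjamini-Hochberg over 36573 probes), where 61.3% of all probes did. The F values were 35.5 for Irx2, 34.5 for En2, 24.6 for Irx5, 13.1 for Pax7, 11.2 for En1, 8.40 for Pax6, 4.30 for Irx1 and 2.91 for Irx3. Lmx1b (F = 1.88, adjusted p = 0.0730) and Pax5 (F = 0.737, adjusted p = 0.839) did not pass. In the authors' normalized intensities 7 genes passed and En1 did not (F = 1.68, adjusted p = 0.121), and after normexp background correction and quantile normalization 7 passed and Irx3 did not (adjusted p = 0.306). Over the 13 coronal pairs alone, an alternative added after the data were seen, 7 passed and Irx3 did not (F = 1.19, adjusted p = 0.538).

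En2, the engrailed gene that stays on in the adult cerebellum, was concentrated in the 3 coronal pairs c2 to c4. In mouse C its intensity was 166% in C1, then 1515%, 1453% and 1421% in C2, C3 and C4, 204% in C5 and 62.8% in C6. From C7 to C13 it ran between 11.5% and 28.5%. In mouse Co it was 31.0% in Co1, 400% in Co2, then 1121%, 1103% and 1172% in Co3 to Co5, 276% in Co6 and 69.8% in Co7, and it lay between 8.78% and 27.8% from Co8 to Co16. The highest value of each mouse was thus 131 and 134 times its lowest. Among the pair means, c2, c4 and c3 lay within 0.04 of each other on the log2 scale, less than the spread within pairs (SD 0.53), and the next pair, c1, lay 2.29 lower. The cerebellar markers followed the same fractions: Gabra6, the GABA-A receptor subunit of granule cells, stood at 1326%, 1387% and 1383% in C2 to C4 and at 129% in C5, and Pcp2, a Purkinje cell protein, at 3058%, 3437% and 3016% with 367% in C5.

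Pax6, which in the adult is known from granule cells and from interneurons of the olfactory bulb, had a band at each end of the brain. In mouse C it was 216%, 217% and 209% in C2 to C4, fell to a range of 34.6% to 56.8% from C5 to C11, and stood at 173% in C12 and 114% in C13. In mouse Co it was 146%, 147% and 153% in Co3 to Co5, between 19.2% and 39.3% from Co6 to Co12, 50.9% in Co13, and 98.8%, 118% and 89.1% in Co14 to Co16. The caudal band lay with Gabra6 and the rostral one with Doc2g, a gene of olfactory bulb output neurons, which reached 3897% and 5830% in C12 and C13 and 3277%, 4530% and 3781% in Co14 to Co16. Between the bands Pax6 did not drop to the background in any fraction. A dimmer second probe of Pax6, well above background in 45 fractions, correlated with the first at r = 0.66 over the 61 fractions, and its highest coronal values were in C2 and, apart from the first probe, in Co9.

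Pax7, the paired-box gene of the midbrain roof, formed a narrow band. In mouse C it was 13.6% in C5 and 8.81% in C6, next to 2.07% in C4 and 1.48% in C7. In mouse Co it was 12.9% in Co6 and 12.6% in Co7, with 1.35% in Co5 and 2.22% in Co8. No other coronal fraction exceeded 1.81%, and of those only C8 was well above background. The pair means of c5 and c6 differed by 0.33 (log2), within the spread of pairs (SD 0.54), and the next pair, c7, lay 2.54 below c6. Tph2, the enzyme of serotonin synthesis in the raphe, peaked in C5 (77.8%) and Co6 (118%). Slc6a3, the dopamine transporter of the ventral midbrain, peaked 1 fraction further rostrally in C6 (1886%) and Co7 (1077%). The Pax7 band spanned both peaks, but Slc6a3 still stood at 403% in C7 and 925% in Co8. Of the 4 listed genes of the superior and inferior colliculus, Tfap2d peaked in C4 and Co6 and Tfap2b in C3 and Co3. Pou4f2 peaked in C5 and Co4, and Barhl2 in C2 and Co4.

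**Figure D1:**
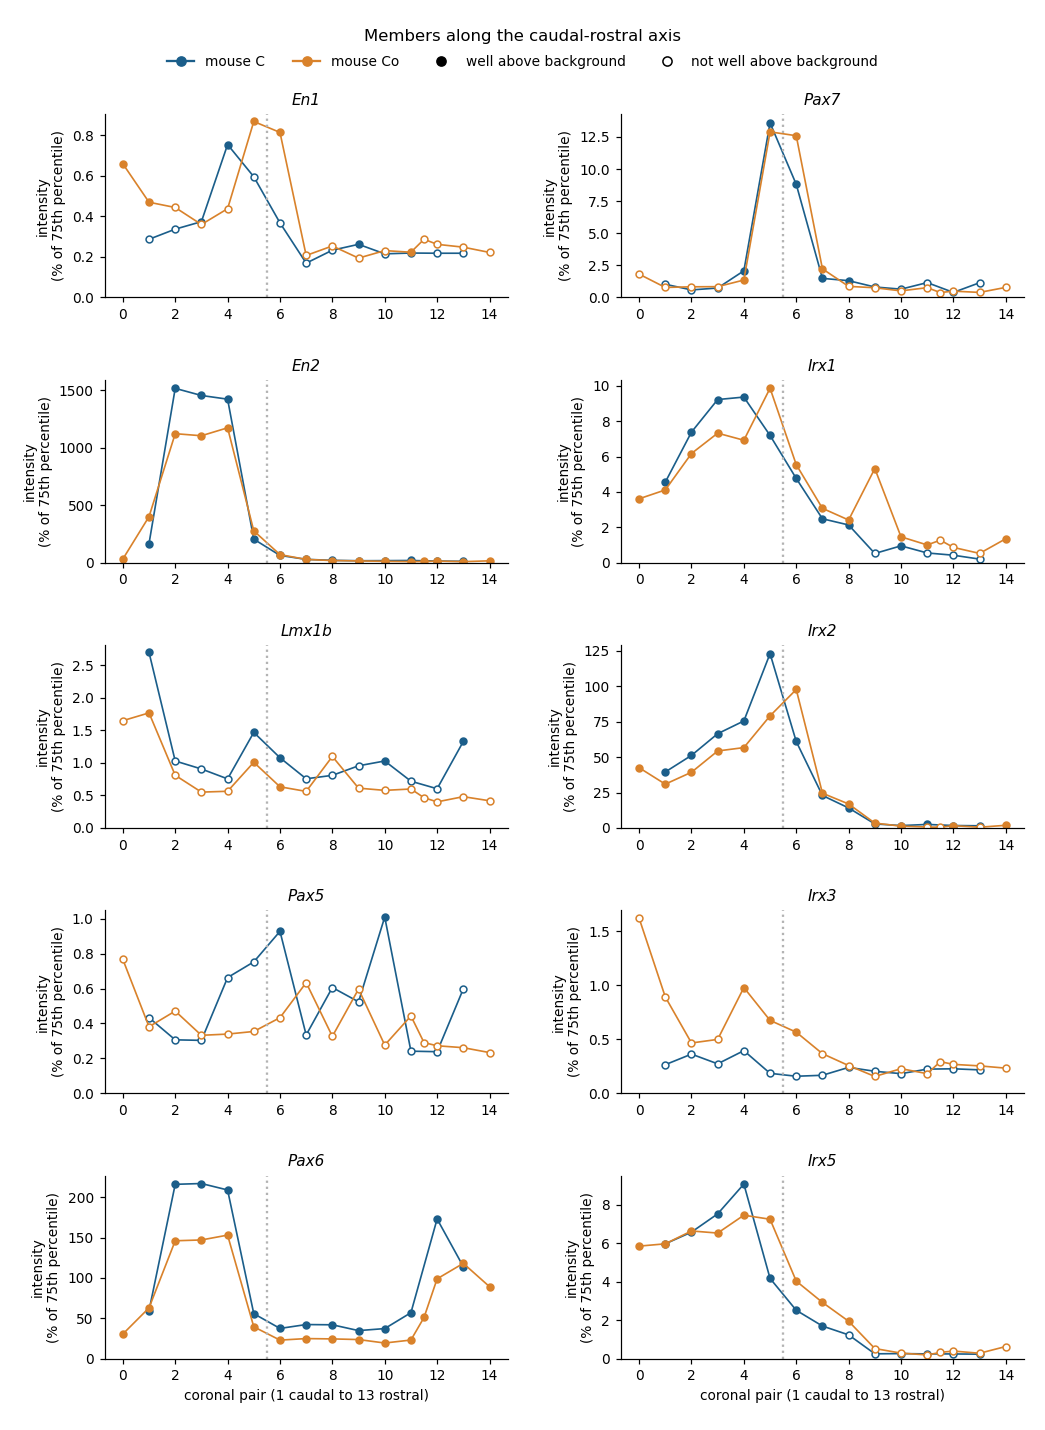
Intensity of each of the 10 genes (percent of the array's 75th percentile, linear axes from 0) along the coronal pairs, with mouse C in blue and mouse Co in orange; filled points were well above background, open points were not. The unpaired fractions Co1, Co13 and Co16 stand at position 0, between pairs 11 and 12, and at position 14, and the dotted line is the border of the caudal and rostral groups. En2 fills pairs 2 to 4, Pax6 has a band at each end, and Pax7 is highest in pairs 5 and 6. Irx1, Irx2 and Irx5 are highest between pairs 4 and 6 in both mice and fall from there towards the forebrain.

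Irx2, an Iroquois factor, ran through the whole hindbrain and was highest where Pax7 was. In mouse C it rose from 39.5% in C1 to 123% in C5, then read 61.0% in C6, 22.9% in C7, 14.1% in C8 and 1.51% to 2.84% from C9 to C13. In mouse Co it was between 30.9% and 56.7% from Co1 to Co5, 79.1% in Co6, 97.7% in Co7, 24.5% in Co8 and 16.9% in Co9, and it reached 3.41% at most further rostrally. The other probes of Irx2 had r = 0.99 and 0.95 with this one over the 61 fractions and their highest values in the same fractions of all 6 mice. Gata3, a zinc finger factor of GABA and serotonin neurons of the brainstem, was highest in the same fractions, with 101% in C5, 83.3% in C6, 82.4% in Co6 and 86.5% in Co7. Of its highest value in each mouse, Gata3 kept 8.83% in C1, 6.57% in C2 and 4.45% in Co3, but 53.6% in Co1. Irx2 kept 32.2%, 41.8%, 40.2% and 43.6% of its own in these fractions. Slc6a5, the glycine transporter of medulla and spinal cord neurons, was instead highest at the caudal end, with 332% in C1 and 358% in Co2.

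Irx5, another Iroquois factor, ran from the caudal end to c7 or c8, and was highest in C4 and Co5, caudal to the highest fractions of Irx2. The highest pair exceeded the next by less than the spread within pairs for both genes. The gap was 0.231 for Irx5 (SD 0.455, log2) and 0.351 for Irx2 (SD 0.513). It read 5.97%, 6.58%, 7.53% and 9.08% in C1 to C4, 4.17% in C5, 2.51% in C6 and 1.69% in C7, and was not well above background from C8 on. In mouse Co it was between 5.85% and 7.46% from Co1 to Co6, 4.03% in Co7, 2.92% in Co8 and 1.94% in Co9, and not well above background from Co10 on. In both mice the signal was thus last well above background within c7 or c8.

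Irx1 had the same slope with more scatter. It rose from 4.55% in C1 to 9.36% in C4 and fell through 4.76% in C6 to 2.13% in C8, and in mouse Co it was highest in Co6 (9.86%). Single fractions departed from their neighbours: Co10 read 5.32% between 2.41% in Co9 and 1.46% in Co11, and So10 read 27.0% beside 2.22% in So9. Its spread within pairs (SD 0.89, log2) was the largest of the 10 genes, and its pairs c5, c3 and c4, the highest 3, differed by less than 0.1.

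En1 was at the limit of detection. Its probe is printed in 10 spots per array, and in 9 of the 12 fractions called well above background only 1 spot passed. In Co6 and Co7, however, 9 of the 10 spots passed, with intensities of 0.869% and 0.815%, against 0.438% in Co5 and 0.207% in Co8. Co5 to Co8 shared a slide. Mouse C had its highest values in C4 (0.755%) and C5 (0.596%), where 1 spot and no spot passed. The lowest signal well above background was 0.57% on the array of Co6 and 0.542% on that of Co7. It was 1.25% on that of C4 and 0.824% on that of C5. The part of this limit in the calls was not tested. En1 is known from adult dopamine neurons of the midbrain. Slc6a3 stood at 16.7% in Co6, 1077% in Co7 and 925% in Co8. It stood at 3.96% in C4 and 99.9% in C5, and at 1886% in C6, where En1 read 0.368% with no spot passing.

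Lmx1b ranged from 0.401% to 2.70% over all 61 fractions. Its highest coronal pair was the most caudal, c1, with 2.70% in C1 and 1.77% in Co2, and a smaller local rise lay at c5, with 1.47% in C5 and 1.01% in Co6, all 4 well above background, although c5 exceeded the next pair by less than the spread within pairs. Irx3 was well above background only in Co5 (0.978%), Co6 (0.674%) and Co7 (0.565%), which shared a slide. On these arrays the lowest signal well above background was 0.719%, 0.57% and 0.542%. Pax5, the paired-box gene of the midbrain-hindbrain border, passed only in C6 (0.928%) and C10 (1.01%). For Pax5 the partner fractions Co7 (0.433%) and Co11 (0.276%) did not pass.

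**Figure D2:**
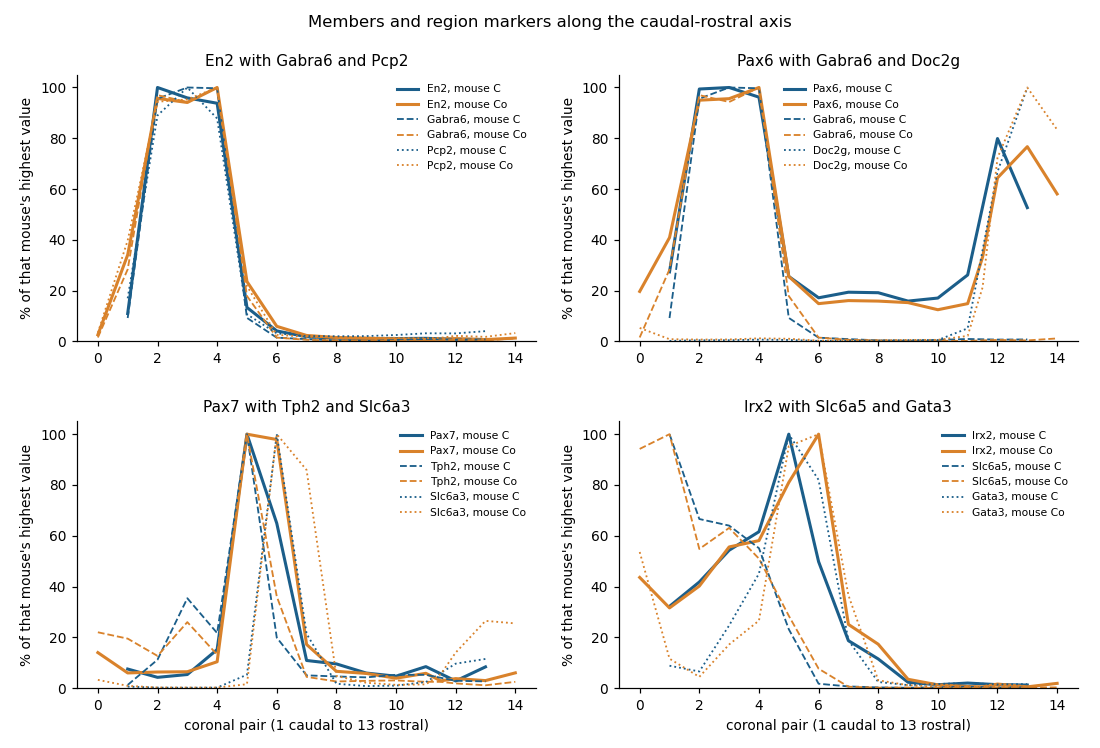
Profiles of En2, Pax6, Pax7 and Irx2 (thick lines) beside genes of known regions (thin dashed and dotted lines) along the coronal pairs, each as percent of the highest value in the same mouse, with mouse C in blue and mouse Co in orange. En2 overlies the cerebellar genes Gabra6 and Pcp2, and the bands of Pax6 lie with Gabra6 and with the olfactory bulb gene Doc2g. Pax7 lies at the peaks of Tph2 and Slc6a3, of which Slc6a3 reaches further rostrally. Irx2 peaks with Gata3, while Slc6a5 is highest at the caudal end.

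The first comparison set the caudal pairs c1 to c5 (10 fractions) against the rostral pairs c6 to c13 (16 fractions). Of the 10 genes, 9 were higher caudally and none lower at an adjusted p under 0.05, where 47.6% of the 36573 probes differed, 27.4% higher and 20.3% lower. With each array scaled to its median in place of the 75th percentile, the share of calls that were higher caudally changed from 57.5% to 42.1%, and the median difference of all probes from 0.10 to -0.01. With that scaling 7 of the 10 genes passed, without Lmx1b (adjusted p = 0.0791) and Pax7 (adjusted p = 0.0988). The median difference of the 10 genes was 1.14 on the log2 scale.

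En2 differed most, with 166% to 1515% caudally (median 1112%) and 8.78% to 69.8% rostrally (median 17.0%). The groups did not overlap, and the difference was 5.17 ± 0.21 (SE) on the log2 scale, a 35.9-fold change (adjusted p = 3.9e-19). Irx5 did not overlap either, with 4.17% to 9.08% caudally (median 6.61%) and 0.186% to 4.03% rostrally (median 0.334%, 5 of 16 fractions well above background). Its difference was 3.46 ± 0.18 (adjusted p = 1.51e-16), and since most rostral values lay under the limit of detection its size depended on how dim signals were treated: it was 2.36 with signals raised to the floor of each array and 0.88 after normexp and quantile normalization. Of all probes, 1.52% had caudal fractions that were all above the rostral ones, and 2.70% were apart in either direction.

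Irx2 was 30.9% to 123% caudally (median 55.5%) and 0.508% to 97.7% rostrally (median 2.65%), and overlapped only through c6. Its difference was 3.61 ± 0.20 (adjusted p = 9.54e-16). Irx1 was 4.11% to 9.86% caudally (median 7.26%) and 0.20% to 5.54% rostrally (median 1.23%), a difference of 2.40 ± 0.35 (adjusted p = 8.87e-07). After normexp and quantile normalization these differences were 2.17 for Irx2 and 0.77 for Irx1. Pax6 was 39.3% to 217% caudally (median 146%) and 19.2% to 173% rostrally (median 37.2%), and differed by 1.34 ± 0.16 (adjusted p = 1.8e-08). Its groups overlapped, since C7, C8, C11 and the olfactory fractions of c12 and c13 all exceeded the lowest caudal value, that of Co6.

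The remaining differences were small. En1 differed by 0.89 ± 0.11 (adjusted p = 8.27e-08), with 4 of 10 caudal and 3 of 16 rostral fractions well above background. With slide as a fixed block it reversed to -0.11 (adjusted p = 0.92), and after normexp and quantile normalization it was 0.15. Irx3 differed by 0.93 ± 0.21 (adjusted p = 0.000412), with 2 of 10 and 1 of 16, and Lmx1b by 0.49 ± 0.19 (adjusted p = 0.0305), with 4 of 10 and 4 of 16. For these 3 genes most values lay under the lowest signal well above background, and that limit itself had a median of 1.14% over the caudal and 0.901% over the rostral arrays. Its part in these differences was not tested.

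Pax7 differed by 0.52 ± 0.21 (adjusted p = 0.0423), from 0.579% to 13.6% caudally and 0.385% to 12.6% rostrally, and the border of the comparison lay within its band. With the border moved to c1 to c4 against the rest the difference was -0.63 (adjusted p = 0.0185), and with c1 to c6 against the rest 1.44 (adjusted p = 8.34e-07). Pax5 did not pass (-0.07 ± 0.24, adjusted p = 0.827).

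The separate mice gave caudal minus rostral differences of 4.97 and 5.37 for En2 in C and Co, 3.65 and 3.57 for Irx2, 3.68 and 3.25 for Irx5, 2.97 and 1.83 for Irx1, and 1.18 and 1.51 for Pax6. The difference between the mice, tested across the 13 pairs, passed for none of the 10 genes and for 0 of 36573 probes (limma). At an unadjusted p under 0.05, Irx1 (Co lower by -1.14 ± 0.46) and Irx3 (Co higher by 0.84 ± 0.38) passed, as did 14.5% of all probes. Slide and position were partly bound together, since neighbouring fractions shared slides. With slide as a fixed block, 3 of the 10 genes passed, En2 (4.97), Irx2 (3.95) and Irx5 (3.14). Slides of 1 mouse that held both sides were compared within themselves. There C5 exceeded C6 to C8 by 2.63 for En2, 2.18 for Irx2 and 1.26 for Irx5. Co5 and Co6 exceeded Co7 and Co8 by 3.69, 0.45 and 1.1. In the same comparisons, En1 differed by 1.289 and 0.587, with only Co6 and Co7 well above background. Pax7 differed by 2.404 and -0.345.

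**Figure D3:**
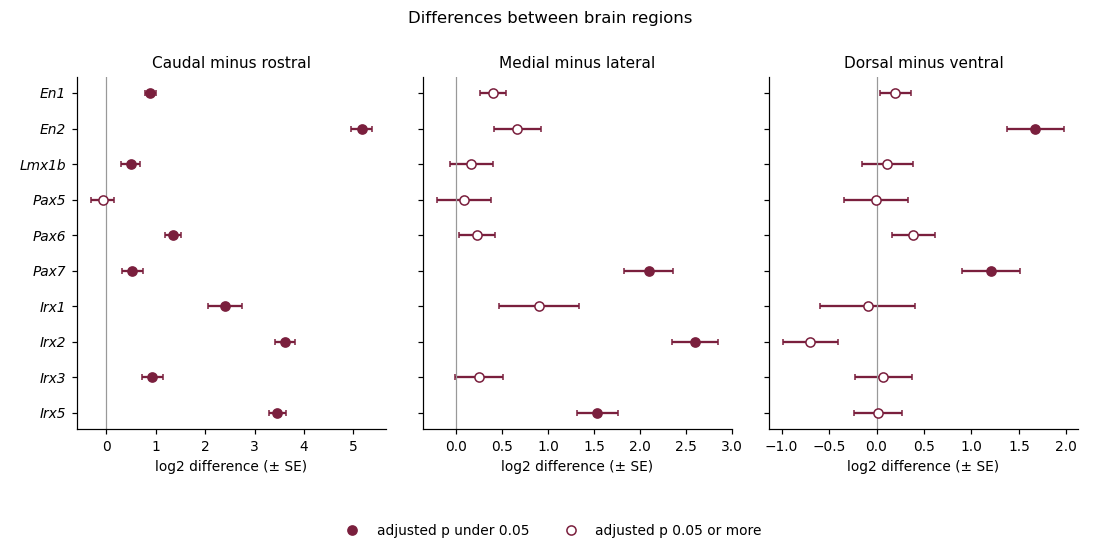
Log2 difference (point) and SE (bar) of each of the 10 genes for the caudal against rostral, medial against lateral and dorsal against ventral pairs, with filled points at an adjusted p under 0.05. In the caudal against rostral panel 9 points are filled, with En2 at 5.17, in the medial against lateral panel 3, and in the dorsal against ventral panel 2.

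The second comparison set the midline pairs s4 to s6 (6 fractions) against the lateral pairs on both sides (12 fractions). Irx2, Pax7 and Irx5 were higher at the midline, where 7.67% of all probes were higher and 6.26% lower (13.9% in all), and no gene of the 10 was lower. Irx2 was 48.4% to 64.8% at the midline (median 57.6%) and 0.965% to 36.9% laterally (median 11.4%), without overlap, and differed by 2.60 ± 0.25 (adjusted p = 8.24e-09). Irx5 was 2.93% to 4.6% (median 3.49%) against 0.423% to 2.41% (median 1.42%, 3 of 12 well above background), also without overlap, and differed by 1.54 ± 0.22 (adjusted p = 7.9e-06). That difference was 0.77 with signals raised to the floor and 0.41 after normexp and quantile normalization, and both passed. Of all probes, 0.921% had midline fractions that were all above the lateral ones, and 1.70% were apart in either direction.

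Pax7 was 2.53% to 9.47% at the midline (median 5.08%) and 0.556% to 6.12% laterally (median 0.924%, 2 of 12 well above background), and differed by 2.10 ± 0.26 (adjusted p = 9.39e-07). With signals raised to the floor it differed by 1.18, and after normexp and quantile normalization by 0.57, and both passed. The overlap came from S7 (2.98%) and So4 (6.12%). So4 was the highest fraction of mouse So, whereas mouse S was highest in S5 (9.47%). The midline difference was 2.54 in S and 1.65 in So. Within the 4 slides of 1 mouse that held both sides, the difference ran from 1.26 to 2.80 for Pax7. It ran from 1.31 to 2.51 for Irx2 and from 0.87 to 1.89 for Irx5.

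En2 spread over nearly the whole width of the brain. It was 243% to 367% at the midline (median 293%) and 15.7% to 415% laterally (median 279%), with low values only in the outermost fractions S1 (57.7%), S9 (68.1%), So1 (23.4%) and So2 (15.7%). It did not pass (0.67 ± 0.26, adjusted p = 0.0893), and neither did Pax6 (0.23 ± 0.20, adjusted p = 0.570), which ran from 31.4% to 85.2% in S and from 23.3% to 77.0% in So. With mouse as a replicate block, 5 of the 10 genes passed, En1 (adjusted p = 0.0311) and En2 (adjusted p = 0.0413) besides the 3. Irx1 (0.90 ± 0.43, adjusted p = 0.198) turned on the single fraction So10, without which 6 genes passed, Irx1 among them (1.22, adjusted p = 0.0232).

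The third comparison set the dorsal pairs h1 to h3 against the ventral pairs h4 to h6 (6 fractions each). En2 and Pax7 were higher dorsally, where 5.20% of all probes were higher and 7.38% lower (12.6% in all), and none of the 10 was lower dorsally. En2 was 129% to 442% dorsally (median 427%) and 46.1% to 212% ventrally (median 116%), a difference of 1.67 ± 0.30 (adjusted p = 0.00017), and the groups overlapped through H1. Of all probes, 3.88% had dorsal fractions that were all above the ventral ones and 7.90% were apart in either direction. It was 18.0% in Ho1, the unpaired fraction at the top of the brain, and 129% in H1. Pcp2 and the other 4 Purkinje cell genes listed, and all 5 granule cell genes listed, were likewise higher dorsally.

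Pax7 was 1.51% to 7.11% dorsally (median 3.13%) and 0.614% to 2.83% ventrally (median 1.38%), a difference of 1.21 ± 0.30 (adjusted p = 0.00627). Its highest pair was h2, with 7.11% in H2 and 5.99% in Ho3, and the next pair lay 1.32 lower (log2), more than the spread within pairs (SD 0.54). Irx2 leaned the other way with its highest values in h5, 57.8% in H5 and 57.6% in Ho6, but did not pass (-0.70 ± 0.29, adjusted p = 0.123). It did pass as lower dorsally after normexp and quantile normalization (-0.49, adjusted p = 0.0374) and with h1 and h2 set against h5 and h6 (-1.14, adjusted p = 0.0259). Irx5 (0.02 ± 0.26, adjusted p = 0.988) and Irx1 (-0.09 ± 0.50, adjusted p = 0.962) had their highest pair mean at h3. It exceeded the next pair by less than the spread within pairs. The gap was 0.163 over h4 for Irx5 (SD 0.455, log2) and 0.077 over h5 for Irx1 (SD 0.894).

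The dorsal calls depended on how slide and pairing were treated. With slide as a random block En2 alone passed, and with slide as a fixed block or with fractions paired by their own number none did (limma), with 1 gene in each at an unadjusted p under 0.05. Within the slide that held H3 to H6, H3 exceeded the other 3 by 2.46 for En2 and by 0.44 for Pax7.

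**Figure D4:**
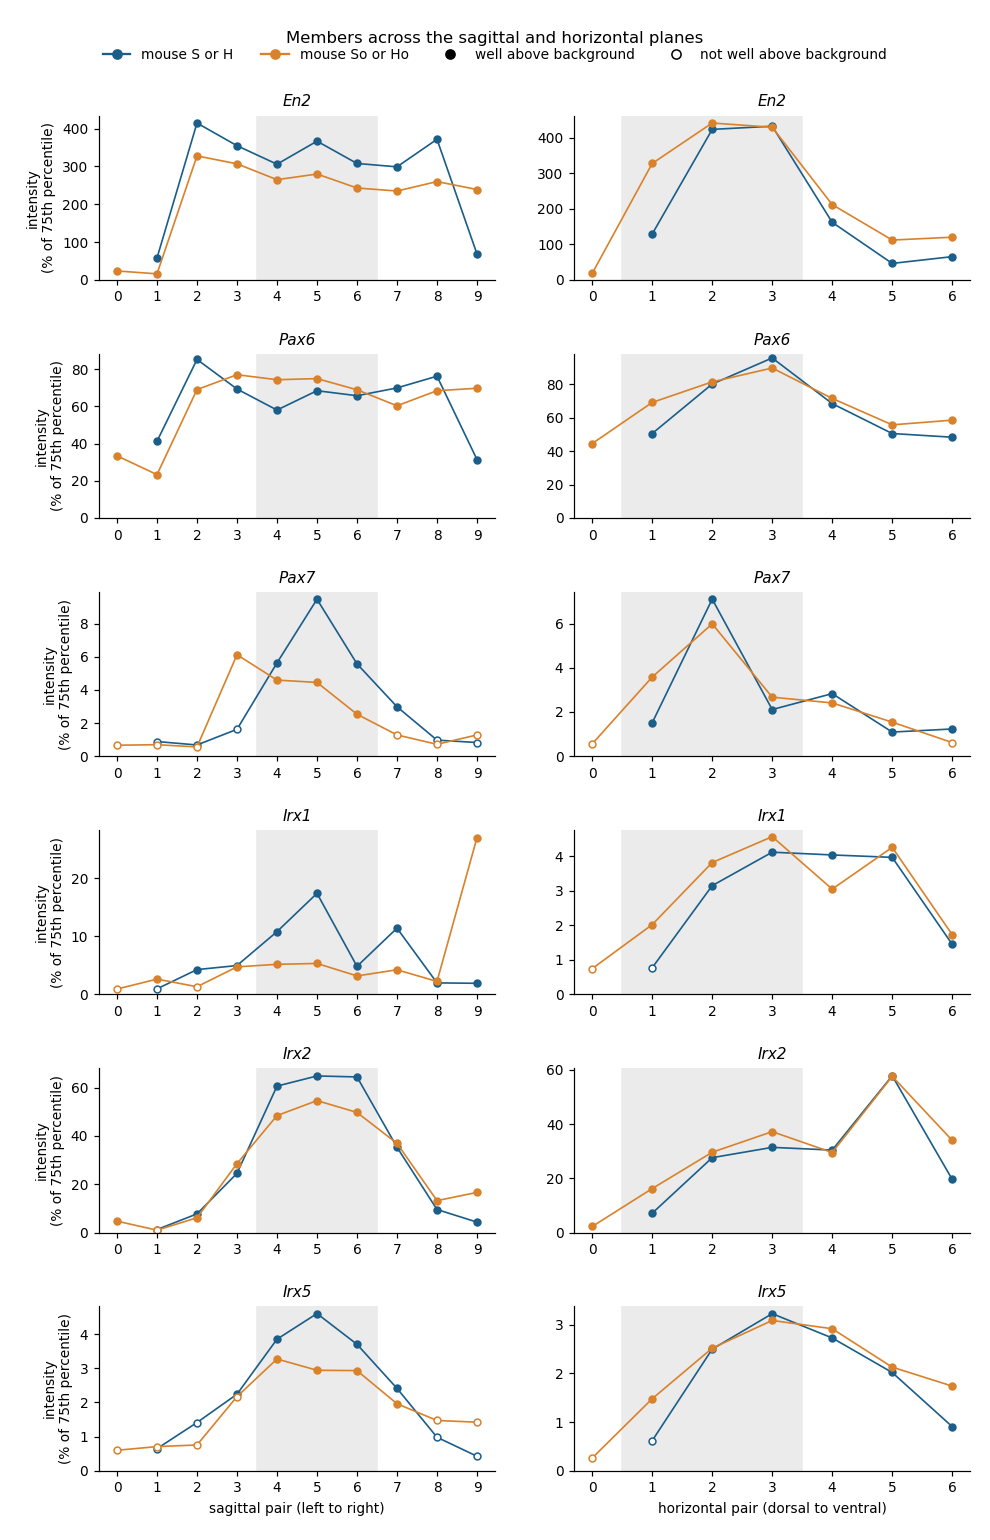
Intensity (percent of the array's 75th percentile, linear axes from 0) of En2, Pax6, Pax7, Irx1, Irx2 and Irx5 along the sagittal pairs (left column) and the horizontal pairs (right column), with mice S and H in blue and So and Ho in orange; filled points were well above background, open points were not, position 0 holds the unpaired fractions So1 and Ho1, and the medial and dorsal groups are shaded. Irx2, Irx5 and Pax7 rise at the midline, En2 is low only in the outermost fractions, and Pax7 peaks at horizontal pair 2 while Irx2 peaks at pair 5.

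The mouse Iroquois genes lie in a pair of clusters, Irx1, Irx2 and Irx4 in one and Irx3, Irx5 and Irx6 in the other, as the RefSeq gene order gives them. Over the 61 fractions, Irx2 and Irx5, from different clusters, had the highest correlation among the 10 genes (r = 0.92). Irx1 had r = 0.78 with its cluster neighbour Irx2 and 0.83 with Irx5, while Irx3 had 0.40 with its neighbour Irx5. The remaining cluster members, named here for their position, were well above background in all 61 fractions and higher caudally, Irx4 by 1.76 (adjusted p = 1.44e-11) and Irx6 by 0.79 (adjusted p = 3.66e-09). The engrailed genes had r = 0.40 with each other. The fractions share neighbouring tissue and the arrays share slides, so that these correlations describe the profiles only.

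En1 and Irx3, both mostly under background, had r = 0.81 with each other. En1 read 0.321% to 0.809% in the sagittal and 0.159% to 0.302% in the horizontal fractions, and the lowest signal well above background was 1.5% to 2.64% on the sagittal and 0.657% to 1.02% on the horizontal arrays. The part of this limit in the correlation was not tested.

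**Figure D5:**
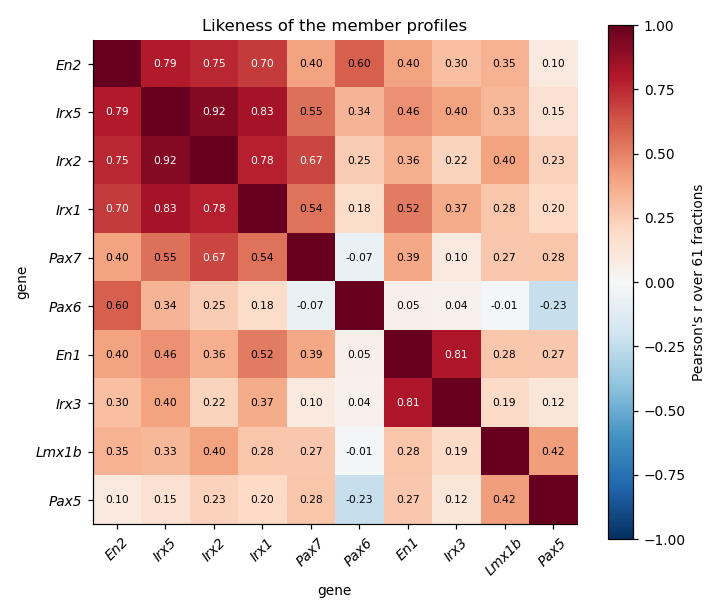
Pearson's r between the log2 profiles of each pair of the 10 genes over the 61 fractions (colour from -1 to 1, value in each cell). En2, Irx5, Irx2 and Irx1 form a block with values from 0.70 to 0.92, Pax6 has r = 0.60 with En2 and at most 0.34 with the Iroquois genes, and the dim genes En1 and Irx3 have 0.81.

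Among 13746 named genes well above background on at least 10 arrays, the profiles most like En2 were those of Cbln3 (r = 0.979), a cerebellin of granule cells, Gabra6 (r = 0.978) and Car8 (r = 0.975), a Purkinje cell protein. For Pax7 they were Tal1 (r = 0.833) and Gata3 (r = 0.807), factors of brainstem GABA neurons, and Chrna6 (r = 0.788), a nicotinic receptor subunit of dopamine neurons. For Irx2 they were Irx5, Gata3 (r = 0.913) and Dmbx1 (r = 0.895), a homeobox gene of the midbrain. Irx5 was most like Lingo4 (r = 0.932), Irx2 and Tuft1 (r = 0.913), and Irx1 like Irx5, Slc26a11 (r = 0.826) and Tuft1 (r = 0.820). Pax6 was most like Btg1 (r = 0.953), Afap1l2 (r = 0.935) and Lhfp (r = 0.934).

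The dim genes had looser neighbours, rank for rank, and the part of the detection limit in these likenesses was not tested. En1 was most like Trpc4ap (r = 0.715), Nop56 (r = 0.704) and Gpr108 (r = 0.691), and Irx3 like En1, Trpc4ap (r = 0.759) and Alg12 (r = 0.746). Lmx1b was most like Aqp2 (r = 0.725), Msi1 (r = 0.724) and Sprr2e (r = 0.717), and Pax5 like Klk7 (r = 0.615), Vmn2r89 (r = 0.57) and Akr1c21 (r = 0.563).

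Of 58 other regulators of midbrain and hindbrain, 55 were tested, and 34 were higher caudally, 11 lower and 10 did not pass, with a median difference of 0.78 against 0.10 over all probes. Over all probes, 27.4% were higher caudally and 20.3% lower. The highest 5 differences were those of Mab21l2 (5.00), Barhl1 (4.80), a homeobox gene of granule cells, Evx1 (4.54), an interneuron homeobox gene, Lhx1 (4.5), a LIM homeobox gene, and Pax3 (4.45), the paired-box relative of Pax7. The lowest 5 were Egr2 (-4.57), a hindbrain segment gene that is also an activity-dependent gene of the adult cortex, Helt (-3.19), Otx1 (-2.17), a forebrain and midbrain homeobox gene, Meis2 (-1.43) and Nr4a2 (-0.96), a factor of dopamine neurons and cortex. At the midline 29 of the 55 were higher and 3 lower, where 7.67% of all probes were higher and 6.26% lower. Dorsally 6 of the 55 were higher and 14 lower, where 5.20% of all probes were higher and 7.38% lower. Of 26 regulators of the telencephalon tested, 4 were higher caudally and 21 lower, with a median difference of -2.56.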

How the data were processed

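Each of 61 brain fractions was hybridised to 1 one-colour (Cy3) Agilent whole mouse genome array. The deposited scanner files give, per spot, an intensity from which Agilent Feature Extraction 9.1.3.1 had subtracted the background, with no normalization between arrays. The authors also deposited a table of intensities normalized per array, whose 61 columns were each matched to an array (0 columns unused) and which served as an alternative. The S fractions carry labels from 2 to 10 and are called S1 to S9 here, as in the list of pairs. From the deposited intensity of 43379 non-control spots, log2 values were averaged over the spots of 41174 probes, without spots flagged as outliers where others remained, and reduced by the 75th percentile of the array. A probe was tested when well above background on at least 1 array (36573 probes). RefSeq accessions named 22951 probes. The signal at the 75th percentile ran from 740 to 1971 units (median 1207), and the number of mice and arrays limits the precision.

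The methods' ANOVA over the pairs was an alternative. As the main test, limma 3.58.1 in R 4.3.3 (lmFit and eBayes, 27 numerator, 28 residual and 1.88 prior degrees of freedom) was fitted to the 28 pairs. Benjamini-Hochberg adjustment ran over all probes, with a threshold of 0.05. The procedure was tested on simulated data whose fractions were independent. That simulation could not show the effect of likeness between fractions of a mouse or slide. All fractions of a letter come from 1 animal. The difference between the mice of a pair correlated across probes with that of other pairs of the same mice (median r = 0.278 over 129 combinations, 115 above 0.1) and not with that of other mice (median r = -0.026 over 249, 7 above 0.1). The named genes are the 10 members, the 5 highest and 5 lowest of the other regulators that passed, and the 3 profiles most like each member. The members, gene lists and borders were chosen with earlier results of these data known. Alternatives were the scaling, the authors' table, normexp with an offset of 50, filters on dim probes, a floor, mouse and slide as blocks, other pairings, probes and borders, and leaving out each array.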

Additional observations from a re-analysis of the deposited data

Results flagged for a closer look

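En2 in H1, the most dorsal of the paired horizontal fractions of mouse H, read 129%, far below the nearest of the other 5 dorsal fractions, which read 328%. It was well above background. Over the 10 genes and the groups of up to 10 fractions, 40 sets of values were searched in this way and 1 stood out, and chance alone marks about 1 set in 20.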

How the results depend on the processing

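Of 140 caudal minus rostral values of single genes under alternatives, 122 kept direction and call, 14 lost the call and 4 reversed. The reversals were En1 (-0.11) and Pax7 (-0.30) with slide as a fixed block, and Pax7 (-0.053) with fractions paired by their own number and (-0.63) with the border at c4. With slide as a fixed block the number of genes passing was 3 caudally (main 9) and 0 dorsally (main 2), and 0 passed dorsally with pairs by own number. In each of these fits with 0 calls, 1 gene had an unadjusted p under 0.05 (limma). With slide as a random block (consensus correlation 0.54) 1 passed dorsally. At the midline 5 passed (main 3) with mouse as the replicate block and 5 with s3 to s7 as the medial pairs, and the replicate block changed no other count by over 1.5 times. The medial against lateral contrast could not be fitted with slide as a fixed block, because the slides do not connect its pairs. The cause of these changes was not tested.

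Leaving out each of 56 arrays in turn gave 8 to 9 genes for the variation over pairs, 7 to 9 caudally, 3 to 6 at the midline (6 without So10) and 2 to 2 dorsally, and leaving out each of 13 pairs gave 0 to 0 between the coronal mice. Lmx1b lost its caudal call without any 1 of C1 to C5, Co7, Co10, Co11, Co14 or Co15 (adjusted p up to 0.0847), and Pax7 without any 1 of C1, C3 to C7, C12, Co3, Co4, Co6, Co9 to Co12 or Co15 (up to 0.0983). Dim signals limit En1, Irx3, Lmx1b and Pax5, and the size of the differences of Irx1, Irx5 and Pax7: with signals raised to the floor of each array, Pax5 passed over the pairs (adjusted p = 1.54e-08) and caudally (0.25, adjusted p = 0.0443), although it was well above background in only 2 fractions.

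Over all probes, the calls were 17427 caudal or rostral (4689 with slide as a fixed block), 5093 medial or lateral (9903 with mouse as the replicate block, 8151 with slide as a random block, 1239 with pairs by own number), and 4599 dorsal or ventral (9178, 4764 and 2091 in the same order, and 1417 with slide as a fixed block). Scaling to the array median moved the share of higher calls from 55.1% to 34.3% at the midline and from 41.3% to 55.5% dorsally.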

Other observations

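Co1, the unpaired caudal end of mouse Co, entered no comparison. It held 31.0% of En2, 30.3% of Pax6, 42.5% of Irx2 and 5.85% of Irx5, and also 241% of the olfactory bulb gene Doc2g and 46.4% of Gata3, where its neighbour Co2 read 41.0% and 10.1%. Irx3 was highest there of all fractions (1.62%) without being well above background.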
